A study of Mus musculus with 9 samples.

Results

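Solute carriers are membrane proteins that move ions, metabolites and cofactors across membranes. The genes described here are those whose symbol starts with Slc25a, Slc30a, Slc39a, Slc35, Slc9a, Slc4a, Slc22a or Slc27a, 8 families that serve mostly mitochondria, the Golgi and endoplasmic reticulum, and the cell surface. Of 18194 genes measured, 139 carried such a symbol, and 110 of these were bright enough to be tested among 13447 genes in all. The brightest probe set stood for each gene, and testing required values above the 40th percentile of the array on 3 or more of the 9 arrays. The symbols also take in 3 genes that are not carriers, namely Slc9a3r1 and Slc9a3r2, scaffold proteins that bind sodium-proton exchangers, and Slc4a1ap, an adaptor protein.

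The expression arrays were made from cumulus cells, the specialised granulosa cells around the oocyte of an antral follicle. Wildtype females were compared with Bmp15-/- females, which lack the oocyte growth factor BMP15, and with females that lack BMP15 and carry 1 intact copy of Gdf9 (Bmp15-/-Gdf9+/-, called DM). All were on a B6/129 background, were 4 to 5 months old and had received 5 IU of equine chorionic gonadotropin 48 h earlier, and their complexes were handled with 5 µM of the phosphodiesterase inhibitor milrinone. There were 3 arrays per genotype, each from 75 to 100 complexes pooled from 3 to 4 mice, and p-values rest on how far these separate pools differed.

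Mitochondrial carriers of the Slc25a family bring nucleotides, phosphate, carboxylates, amino acids and cofactors across the inner membrane, and a few serve other organelles. Slc30a proteins move zinc out of the cytosol, Slc39a proteins move it in, and many Slc35 proteins load the Golgi and endoplasmic reticulum with the nucleotide sugars used for glycans. Slc9a and Slc4a proteins exchange protons and bicarbonate, Slc22a proteins carry organic ions and carnitine, and Slc27a proteins take up or activate fatty acids. Cumulus cells are known for feeding the oocyte with metabolites through gap junctions and for making the hyaluronan-rich matrix that expands before ovulation.

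Over all probe sets the correlation was 0.987 or higher between arrays of a genotype and 0.975 or higher between genotypes. The Gapdh 3' minus 5' difference, a measure of RNA quality and amplification, was 0.52 to 0.59 log2 units in wildtype, 0.66 to 0.73 in Bmp15-/- and 0.79 to 0.95 in DM, so it moved with genotype. The same difference for actin was 1.87 to 1.90 in wildtype, 1.85 to 1.92 in Bmp15-/- and 1.85 to 2.12 in DM, and overlapped. The summed log2 level of the 8 cumulus and granulosa markers tested was 90.9 to 91.2 in wildtype, 88.9 to 89.6 in Bmp15-/- and 86 to 88.9 in DM, and all 8 were bright enough to test. Of these 8, 1 fell in Bmp15-/- and 4 fell in DM, and none rose. For this and the other markers, 3.29% of all genes rose and 5.78% fell in Bmp15-/-. In DM 9.95% of all genes rose and 18.2% fell. The 4 theca and stroma markers tested summed to 25.4 to 26.9 in wildtype, 27 to 27.5 in Bmp15-/- and 29.2 to 30.2 in DM, where 3 rose and 1 fell. The 4 surface epithelium markers summed to 26 to 26.6, 27.3 to 28.2 and 27.7 to 28.6 in that order, and 1 rose in Bmp15-/- and 2 in DM. The erythroid marker Alas2 was at 7.3 to 8.1, 5 to 6.3 and 4.8 to 5.4 and fell in both. None of the 3 immune markers or the 1 endothelial marker was called. The 13 oocyte markers summed to 74.2 to 88.6 in wildtype, 71.4 to 84.9 in Bmp15-/- and 69.5 to 76.3 in DM. Of these 1, Tle6, fell in both mutants and 12 did not pass in either. Bmp15 itself, which only the oocyte makes, had values of 5.10, 9.58 and 8.41 on wildtype arrays 1 to 3 in 1 probe set, so wildtype array 1 read like the mutants there (5.05 to 5.10). The part of RNA quality and of other cells in the results that follow was not tested.

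In DM cells many of the carrier genes differed from wildtype, most of them downward. Most calls over all genes were downward too (2442 of 3780). Of the 110 genes 39, or 35.5%, were called in DM, where 28.1% of all genes tested were. Of these 13 rose (11.8%, against 9.95% of all genes) and 26 fell (23.6%, against 18.2%). In Bmp15-/- cells 14 genes, or 12.7%, were called, where 9.07% of all genes were. Here 5 rose (4.55%, against 3.29%) and 9 fell (8.18%, against 5.78%). With the mean of all probe sets of a gene 9.52% of carriers and 9.62% of all genes were called in Bmp15-/-. With only the 6 arrays compared these shares were 12.7% and 14.1%, so the higher share of carriers there depended on the setting. In DM the shares were 32.4% against 29.6% and 29.1% against 24% in that order. All DM arrays lay above all wildtype arrays for 17 genes (15.5%, against 15.9% of all genes) and below them for 37 (33.6%, against 27.4%). For Bmp15-/- these counts were 13 above (11.8%, against 13.4%) and 28 below (25.5%, against 23.4%). The median log2 change of the carriers was -0.05 in Bmp15-/- and -0.13 in DM, against -0.04 and -0.06 over all genes tested. Calls are from limma, 2-sided, with p adjusted by Benjamini-Hochberg over all 13447 genes and a threshold of 0.05. The genes counted as lower in both mutants include Slc4a11, which passed the filter through the wildtype arrays alone. After quantile normalization of the arrays the split was 17 higher and 20 lower in DM and 7 higher and 5 lower in Bmp15-/-. Of the carriers 33.6% were then called in DM and 10.9% in Bmp15-/-, against 26.7% and 8.23% of all genes. The medians over all genes moved up too, to -0.003 in DM and 0.014 in Bmp15-/-. Those of the carriers were -0.059 and 0.008. In these bulk samples fewer cells of a type and less RNA per cell cannot be told apart.

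By family, the mitochondrial carriers held most of the rises in DM, with 8 of 40 higher and 8 lower. That is 20% each way, where 9.95% of all genes rose and 18.2% fell. Of 22 nucleotide-sugar family genes 1 was higher (4.55%) and 7 lower (31.8%) while 14 did not pass. Of 7 zinc exporters and 12 importers 2 and 3 fell (28.6% and 25%) and none rose. In Bmp15-/- the counts changed when single arrays were left out. There were 3 higher and 1 lower without Bmp15-/- array 3, 3 and 2 without wildtype array 1, and 3 and 3 without wildtype array 2 or 3. Without Bmp15-/- array 2 there were 3 and 4. The share of all genes called fell too, from 9.07% to 3.31% without Bmp15-/- array 3, where 3.64% of the carriers were called. Without wildtype array 1 the shares were 4.41% and 4.55%. In DM the count of lower genes went to 17 without wildtype array 3, where the share of all genes called went from 28.1% to 20.3%. The zinc exporter, organic ion and fatty acid families had 0 genes called by limma in Bmp15-/-, where 9.07% of all genes were. They had 1, 2 and 3 genes at an unadjusted p under 0.05.

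**Figure D1:**
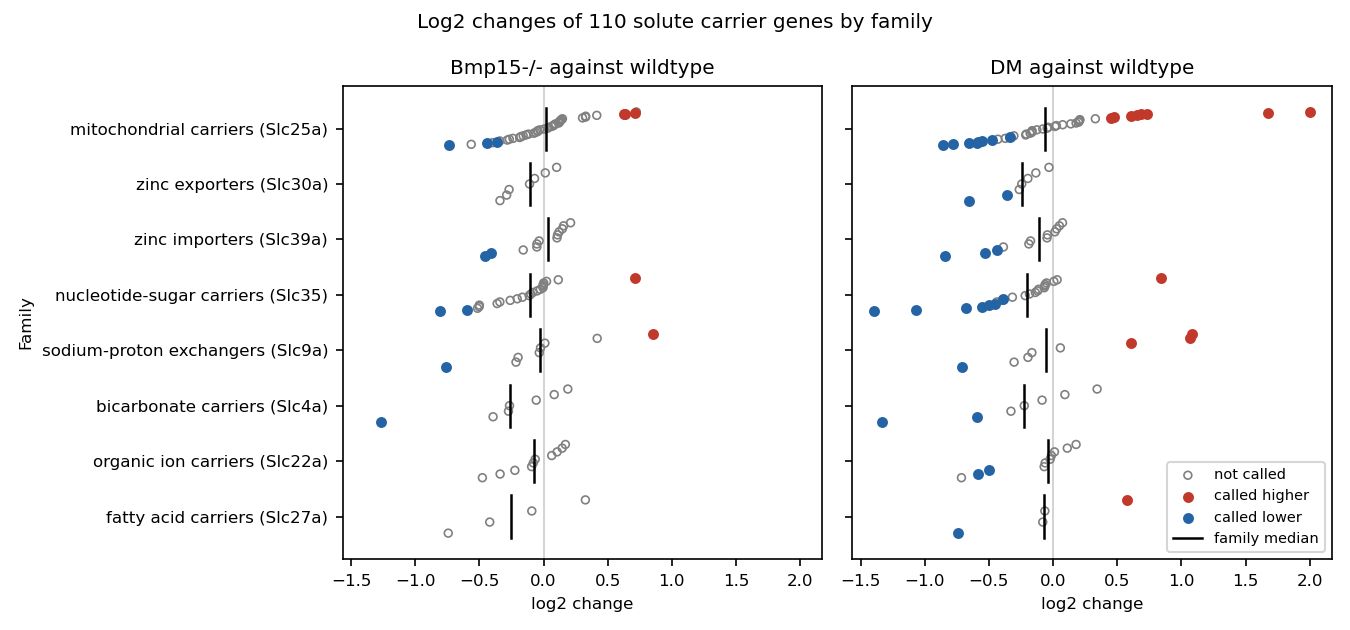
Log2 change of each of the 110 genes (x axis) by family (y axis), for Bmp15-/- against wildtype (left) and DM against wildtype (right). Red points were called higher, blue points called lower, open points not called, and black ticks are family medians. The nucleotide-sugar median lies at -0.20 in DM and the mitochondrial median at -0.06.

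Among mitochondrial carriers the greatest changes were rises in DM. Slc25a27, a relative of the uncoupling proteins, had log2 values of 5.07, 5.28 and 5.54 in wildtype, against 4.87, 5.79 and 6.48 in Bmp15-/- cells and 7.44, 7.14 and 7.32 in DM. All DM arrays lay above the other 6, and the Bmp15-/- arrays overlapped wildtype. The wildtype values were dim, near the 40th percentile of their arrays (5.01, 5.02 and 4.99), and Bmp15-/- array 1 lay under its own (5.03). The folds of this gene are therefore against dim values. The rise in DM was 4.01-fold (log2 2.00 ± 0.33 SE, adjusted p = 0.00227), and the change in Bmp15-/- was 0.42 ± 0.33 (adjusted p = 0.456). When all its probe sets were averaged the rise in DM was 0.50. Slc25a35, a carrier whose substrate is not settled, had 6.57, 6.30 and 6.43 in wildtype, against 7.11, 6.94 and 7.42 in Bmp15-/- cells and 7.87, 8.60 and 7.86 in DM. The 3 genotypes did not overlap, in that order. Its change was 0.72 ± 0.20 in Bmp15-/- (adjusted p = 0.0552) and 1.68 ± 0.20 in DM, a 3.20-fold rise (adjusted p = 0.000493).

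Slc25a24, Slc25a33 and Slc25a42 rose in both mutants. Slc25a24, a calcium-regulated carrier that exchanges ATP-magnesium for phosphate, had 12.21, 12.13 and 12.36 in wildtype, against 12.80, 12.89 and 12.91 in Bmp15-/- cells and 13.02, 12.92 and 12.82 in DM. Every mutant array lay above every wildtype array, and the rise was 1.55-fold in Bmp15-/- (adjusted p = 0.0054) and 1.61-fold in DM (adjusted p = 0.000871). A dimmer probe set of the gene was not called (0.04 and -0.09). The mean of both was not called in DM either (0.30, adjusted p = 0.181).

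Slc25a33, a pyrimidine nucleotide carrier, had 7.32, 7.51 and 7.31 in wildtype, against 8.28, 7.87 and 8.12 in Bmp15-/- cells and 8.15, 8.31 and 7.86 in DM. It rose 1.64-fold in Bmp15-/- (adjusted p = 0.0162) and 1.66-fold in DM (adjusted p = 0.00481), with no overlap between wildtype and either mutant. Slc25a42, which brings coenzyme A into mitochondria, had 7.42, 7.71 and 7.54 in wildtype, against 8.50, 8.16 and 7.92 in Bmp15-/- cells and 8.27, 8.17 and 8.20 in DM. It rose 1.56-fold in Bmp15-/- (adjusted p = 0.0261) and 1.58-fold in DM (adjusted p = 0.00847), and its second probe set was not called (0.00 and -0.13). In Bmp15-/- the call for Slc25a33 was lost without wildtype array 1 or 3 or Bmp15-/- array 3, and that for Slc25a42 without any 1 of the wildtype arrays or Bmp15-/- array 2.

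Against wildtype, 3 more mitochondrial carriers rose past the threshold in DM and not in Bmp15-/-, and none of them passed between the mutants. Slc25a26, the S-adenosylmethionine carrier, was higher by 0.61 ± 0.15 (adjusted p = 0.016), while its dimmer probe set was at -0.03 (adjusted p = 0.866). Slc25a39, needed for glutathione import, was higher by 0.48 ± 0.15 (adjusted p = 0.0379), and Slc25a23, another ATP-magnesium carrier, by 0.45 ± 0.10 (adjusted p = 0.00785). In Bmp15-/- their changes were 0.30, 0.08 and 0.33. The DM call for Slc25a26 was lost without wildtype array 1 or 3 or DM array 1, and that for Slc25a39 without any 1 of the wildtype arrays, Bmp15-/- array 1, or DM array 1 or 2.

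In DM 8 mitochondrial carrier genes fell, which is 20% of those tested, against 18.2% of all genes. Slc25a13, the aspartate-glutamate carrier of the malate-aspartate shuttle, had 10.67, 10.95 and 10.59 in wildtype, against 10.09, 10.10 and 9.80 in Bmp15-/- cells and 9.51, 10.09 and 10.04 in DM. All mutant arrays lay below all wildtype arrays, and it fell 1.67-fold in Bmp15-/- (log2 -0.74 ± 0.17, adjusted p = 0.0278) and 1.81-fold in DM (-0.86 ± 0.17, adjusted p = 0.00543). In Bmp15-/- this call was lost when any 1 of the wildtype or Bmp15-/- arrays was left out. The other carriers of the shuttle were not called: Slc25a12 was at -0.05 and -0.18, and Slc25a11, the oxoglutarate carrier, at -0.34 and -0.34, in Bmp15-/- and DM. Shuttle genes outside these families were not read.

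Slc25a10, the dicarboxylate carrier, had 7.79, 8.05 and 7.82 in wildtype, against 7.85, 7.52 and 7.44 in Bmp15-/- cells and 6.88, 7.40 and 7.03 in DM. It fell 1.72-fold in DM (-0.78 ± 0.16, adjusted p = 0.00587), where no array reached wildtype, and was -0.28 in Bmp15-/- (adjusted p = 0.284). A second probe set was lower in both mutants (-0.61 and -0.89, adjusted p = 0.0139 and 0.000681). Slc25a1, which exports citrate for fatty acid and sterol synthesis, had 7.70, 7.76 and 7.41 in wildtype, against 7.55, 7.41 and 7.39 in Bmp15-/- cells and 6.98, 7.22 and 6.92 in DM. It fell 1.50-fold in DM (-0.58 ± 0.12, adjusted p = 0.00653), with every DM array below the other 6, and was -0.18 in Bmp15-/- (adjusted p = 0.376).

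Slc25a15, the ornithine carrier of the urea cycle, fell 1.51-fold in DM (adjusted p = 0.00374). Slc25a17, a carrier of coenzyme A and adenine nucleotides in the peroxisome, fell in both mutants (-0.36, adjusted p = 0.039, and -0.48, adjusted p = 0.00488). Slc25a44, which imports branched-chain amino acids, also fell in both (-0.44, adjusted p = 0.0371, and -0.34, adjusted p = 0.0428). Of its other probe sets, 1 was called lower in both (-0.52 and -0.72) and a dim one was not called (0.34 and 0.75). Slc25a30 and Slc25a40, a relative of Slc25a39, fell in DM (-0.65, adjusted p = 0.0375, and -0.55, adjusted p = 0.0147). The Bmp15-/- call for Slc25a17 was lost without any 1 of the wildtype or Bmp15-/- arrays, and that for Slc25a44 without any 1 of the wildtype arrays or Bmp15-/- array 2 or 3. In DM the call for Slc25a40 was lost without wildtype array 1, that for Slc25a30 without wildtype array 1 or 3 or any DM array, and that for Slc25a44 without any 1 array other than Bmp15-/- array 1 or DM array 1.

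Carriers known as the bulk carriers of the inner membrane did not pass in their brightest probe sets. Slc25a5 had 12.50, 12.41 and 12.53 in wildtype, against 12.46, 12.62 and 12.63 in Bmp15-/- cells and 12.59, 12.56 and 12.51 in DM, and the genotypes overlapped. Slc25a5 and Slc25a4, the ADP/ATP translocases, were at 0.07 in DM (95% interval -0.11 to 0.26) and 0.18 (-0.04 to 0.39). Other probe sets mostly had the opposite sign. Among the 7 other Slc25a5 probe sets, 1 had the same sign in DM and 1 was called lower (-0.29, adjusted p = 0.0404). The 3 other Slc25a4 probe sets were at -0.18, -0.16 and -0.27 in DM, and none of them was called. Slc25a3, the phosphate carrier, was at 0.20 (0.03 to 0.37, adjusted p = 0.0775) while its dimmer probe set was called higher (1.12, adjusted p = 0.0357), and Slc25a20, the acylcarnitine carrier, at 0.14 (-0.05 to 0.33). 

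**Figure D2:**
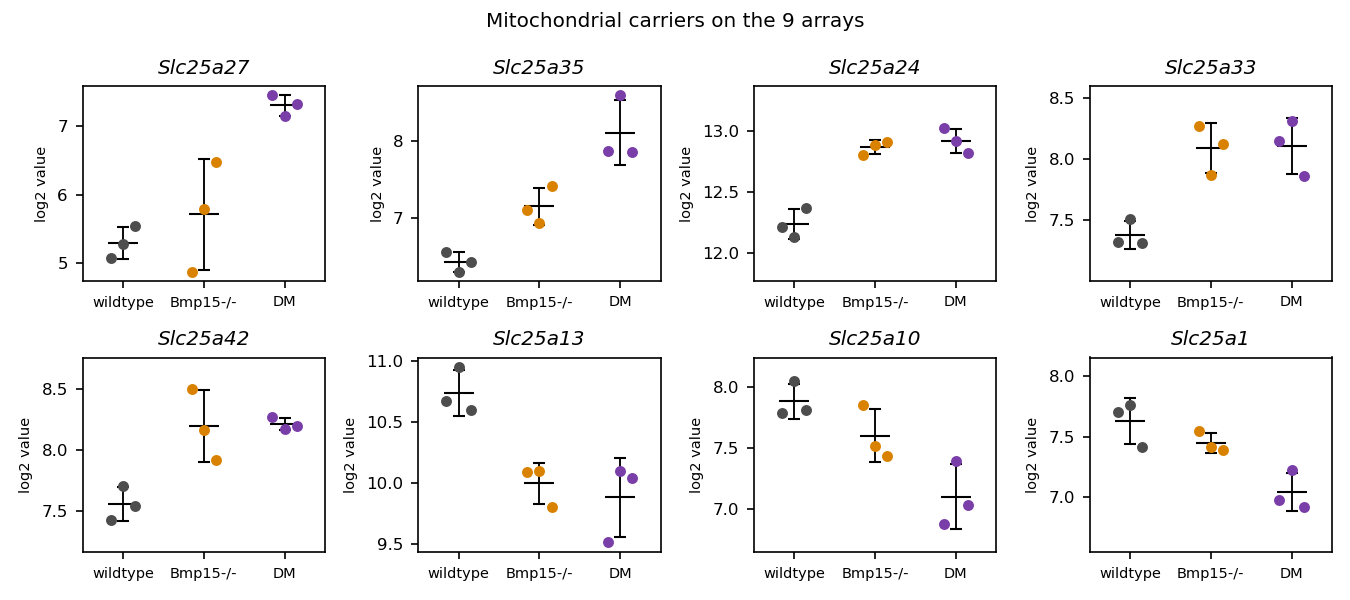
Log2 values (y axis) of 8 mitochondrial carrier genes on the 3 wildtype, 3 Bmp15-/- and 3 DM arrays (x axis), with the mean and SD of each genotype. Slc25a27 and Slc25a35 are highest on the DM arrays, Slc25a24, Slc25a33 and Slc25a42 are raised in both mutants, and Slc25a13 is lower in both.

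Of 14 other mitochondrial transport genes tested, 2 rose, 2 fell and 10 did not pass in DM, with a median of -0.12. Of all genes 28.1% were called in DM, so this share was near the background. Cpt1a, which commits long-chain fatty acids to mitochondrial import, rose by 0.87 ± 0.10 (adjusted p = 0.000421), and Sfxn3, a serine transporter relative, by 0.43 ± 0.12 (adjusted p = 0.0251). Mpc1, a subunit of the pyruvate carrier, fell by 0.35 ± 0.11 (adjusted p = 0.0456), and Letm1, an inner-membrane cation exchanger, by 0.54 ± 0.13 (adjusted p = 0.0156). In Bmp15-/- limma called 0 of the 14.

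Of the zinc carriers tested, none rose in either mutant, where 3.29% of all genes rose in Bmp15-/- and 9.95% in DM. Slc39a10, a zinc importer of the cell surface, had 10.88, 11.13 and 10.73 in wildtype, against 10.50, 10.59 and 10.41 in Bmp15-/- cells and no more than 10.15 in DM, where the mean was 10.07 ± 0.07 (SD, n = 3). The genotypes did not overlap, wildtype being highest and DM lowest, and the fall was 1.33-fold in Bmp15-/- (-0.41 ± 0.11, adjusted p = 0.0495) and 1.79-fold in DM (-0.84 ± 0.11, adjusted p = 0.000774). Its second probe set fell further, by -0.84 in Bmp15-/- (adjusted p = 0.00329) and -1.43 in DM (adjusted p = 5.88e-05). The Bmp15-/- call of the brighter probe set was lost without wildtype array 1 or 2, any 1 of the Bmp15-/- arrays, or DM array 1 or 2.

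Slc39a9, a zinc importer of the Golgi and cell surface, had 8.70, 8.71 and 8.84 in wildtype, against 8.25, 8.36 and 8.27 in Bmp15-/- cells and 8.23, 8.31 and 8.12 in DM. It fell by 0.46 ± 0.08 in Bmp15-/- (adjusted p = 0.0135) and by 0.53 ± 0.08 in DM (adjusted p = 0.00216), with all mutant arrays below wildtype, while its dimmer probe set was not called (-0.10 and -0.08). In Bmp15-/- it was lost from the calls without wildtype array 3 or Bmp15-/- array 3. Slc39a14, which also carries iron and manganese, fell in DM by 0.44 ± 0.13 (adjusted p = 0.0286), a call lost without wildtype array 2 or 3 or DM array 1 or 2. The other 9 importers tested did not pass in DM. Among them was Slc39a1, a zinc importer of the cell surface, with 11.60, 11.61 and 11.54 in wildtype, against 11.68, 11.68 and 11.70 in Bmp15-/- cells and 11.46, 11.53 and 11.62 in DM (-0.04).

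Of the zinc exporters, Slc30a1, which moves zinc out across the cell surface, had 8.92, 8.81 and 9.07 in wildtype, against 8.50, 8.71 and 8.57 in Bmp15-/- cells and 8.41, 8.51 and 7.92 in DM. Both mutants lay below wildtype on every array. The fall passed in DM, where it was 1.57-fold (-0.65 ± 0.15, adjusted p = 0.0116), and not in Bmp15-/- (-0.34 ± 0.15, adjusted p = 0.19). Its dimmer probe set was at -0.13 in DM. Slc30a9, a zinc exporter of mitochondria, had 12.28, 12.23 and 12.20 in wildtype, against 12.12, 12.30 and 12.09 in Bmp15-/- cells and 11.76, 12.13 and 11.75 in DM. It fell by 0.36 ± 0.12 in DM (adjusted p = 0.046), and left the called set when any 1 array other than DM array 2 was left out.

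Genes for zinc-binding proteins were read beside the carriers. Of 4 tested, 2 rose in DM and none fell, where 9.95% of all genes rose, and both were metallothioneins: Mt1 by 0.66 ± 0.16 (adjusted p = 0.0124) and Mt2 by 0.76 ± 0.23 (adjusted p = 0.0367). In Bmp15-/- they were at 0.34 (adjusted p = 0.209) and 0.63 (adjusted p = 0.122). Slc30a1, Mt1 and Mt2 are textbook targets of the zinc-sensing factor MTF1, which binds metal response elements, and here Slc30a1 fell while the other two rose. Their promoters are shown for that reason, as the 250 bases before the RefSeq start on GRCm38.p6, 5' to 3' on the gene's strand, with matches to the core of the metal response element (TGCACNC or TGCGCNC on either strand) in capitals. Slc30a1 is at chr1:191906531-191906780 on the plus strand, Mt1 at chr8:94178839-94179088 on the plus strand and Mt2 at chr8:94172368-94172617 on the plus strand.
Slc30a1: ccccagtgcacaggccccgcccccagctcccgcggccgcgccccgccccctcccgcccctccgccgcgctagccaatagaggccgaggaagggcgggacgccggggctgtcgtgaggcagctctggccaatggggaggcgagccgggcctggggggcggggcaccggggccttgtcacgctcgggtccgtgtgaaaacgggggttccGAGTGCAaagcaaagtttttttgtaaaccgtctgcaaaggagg
Mt1: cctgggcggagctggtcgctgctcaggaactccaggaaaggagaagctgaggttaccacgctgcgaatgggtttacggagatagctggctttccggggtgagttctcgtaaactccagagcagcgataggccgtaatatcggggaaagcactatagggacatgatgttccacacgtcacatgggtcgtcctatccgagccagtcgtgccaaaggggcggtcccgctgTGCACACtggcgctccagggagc
Mt2: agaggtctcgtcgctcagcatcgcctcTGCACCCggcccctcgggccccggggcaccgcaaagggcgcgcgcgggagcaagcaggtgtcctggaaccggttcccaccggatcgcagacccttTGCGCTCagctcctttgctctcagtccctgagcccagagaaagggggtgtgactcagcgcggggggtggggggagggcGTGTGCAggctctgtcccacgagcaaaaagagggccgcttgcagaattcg
The Mt2 window held 3 matches and those of Slc30a1 and Mt1 1 each, the Slc30a1 match lying on the opposite strand. Of 32851 windows of this length, 21.4% held at least 1, as did 23.8% of genes in at least 1 of their windows. Of the 90 carrier genes that had a window 29 did. The windows of Slc39a10 held none. A match is a match of letters and no evidence of binding. Bases after the RefSeq start used were not searched, so any matches there are not counted.

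Of the 22 nucleotide-sugar family genes tested, 7 fell (31.8%, against 18.2% of all genes), 1 rose (4.55%, against 9.95%) and 14 did not pass in DM. Slc35g1, a family member known as a partner of the calcium sensor STIM1, had 9.50, 9.59 and 9.56 in wildtype, against 9.08, 8.54 and 8.61 in Bmp15-/- cells and 8.32, 8.28 and 7.86 in DM. The genotypes did not overlap, and the gene fell 1.75-fold in Bmp15-/- (-0.80 ± 0.16, adjusted p = 0.0177) and 2.63-fold in DM (-1.39 ± 0.16, adjusted p = 0.000389). The Bmp15-/- call was lost without any 1 of the wildtype arrays or without Bmp15-/- array 2 or 3. BMP15 signals through SMAD proteins, for which GGCGCC is a known element of BMP-responsive genes, so the promoter of this gene, the carrier with the greatest fall in DM, is shown with that element in capitals, at chr19:38395730-38395979 on the plus strand of GRCm38.p6 (RefSeq).
Slc35g1: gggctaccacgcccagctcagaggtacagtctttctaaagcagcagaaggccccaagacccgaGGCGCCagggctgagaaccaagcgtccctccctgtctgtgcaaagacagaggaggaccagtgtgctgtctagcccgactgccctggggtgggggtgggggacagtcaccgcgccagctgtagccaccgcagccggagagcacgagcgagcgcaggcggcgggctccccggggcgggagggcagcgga
GGCGCC, which reads the same on both strands, was in 9.59% of the 32851 windows and in at least 1 window of 10.8% of genes. It was in 12 of the 90 carrier genes that had a window, among them 6 of the 22 that fell in DM and 1 of the 8 that rose. No match of it overlapped a metal response element core in the windows shown. Here too a match is a match of letters and no evidence of binding, and control by SMAD proteins was not tested.

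Slc35c1, the GDP-fucose carrier of the Golgi, had 7.26, 7.94 and 7.46 in wildtype, against 7.34, 6.94 and 6.88 in Bmp15-/- cells and 6.14, 7.12 and 6.21 in DM. All DM arrays lay below wildtype while Bmp15-/- overlapped it, and the fall in DM was 2.10-fold (-1.07 ± 0.27, adjusted p = 0.0169), against -0.50 in Bmp15-/- (adjusted p = 0.271). The DM call was lost without wildtype array 2 or DM array 1 or 3. Slc35d1, which carries UDP-glucuronic acid and UDP-N-acetylgalactosamine into the endoplasmic reticulum, had 8.27, 8.30 and 8.28 in wildtype, against 8.17, 7.67 and 7.51 in Bmp15-/- cells and 7.63, 7.74 and 7.43 in DM. It fell 1.60-fold in DM (adjusted p = 0.0114) and was at -0.50 in Bmp15-/- (adjusted p = 0.0789).

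Slc35f2 separated the 2 mutants. It had 7.75, 7.79 and 7.63 in wildtype, against 7.57, 7.85 and 7.82 in Bmp15-/- cells and 7.19, 7.04 and 7.26 in DM, so only the DM arrays were low. It fell by 0.56 ± 0.10 in DM (adjusted p = 0.00407) and was at 0.02 in Bmp15-/-. Its dimmer probe set was not called (0.04 in DM). Slc35b1, an ATP/ADP exchanger of the endoplasmic reticulum, fell in DM by 0.46 ± 0.11 (adjusted p = 0.0134). Slc35e1 fell by 0.50 ± 0.13 in DM (adjusted p = 0.0217), and Slc35f6 by 0.60 ± 0.13 in Bmp15-/- (adjusted p = 0.0221) and 0.39 ± 0.13 in DM (adjusted p = 0.0477), while its dimmer probe set was at -0.09 in both (adjusted p = 0.669 and 0.595). The DM call for Slc35e1 was lost without any 1 of the wildtype arrays or DM array 1 or 3, that for Slc35f6 without any 1 array other than wildtype array 2, and the Bmp15-/- call for Slc35f6 without Bmp15-/- array 1 or 3 or wildtype array 1 or 3.

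The gene that rose was Slc35d2, a carrier of UDP-N-acetylglucosamine. It had 7.49, 7.18 and 7.52 in wildtype, against 7.96, 8.15 and 8.22 in Bmp15-/- cells and 8.23, 8.46 and 8.01 in DM, with every mutant array above wildtype. It rose 1.64-fold in Bmp15-/- (adjusted p = 0.0159) and 1.79-fold in DM (adjusted p = 0.00249). Left out singly, wildtype array 2 or Bmp15-/- array 2 or 3 ended the Bmp15-/- call. Slc35a2, the UDP-galactose carrier, had 12.04, 12.37 and 12.20 in wildtype, against 12.19, 12.29 and 12.12 in Bmp15-/- cells and 12.25, 12.30 and 12.15 in DM, so the genotypes overlapped (0.03 in DM).

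Of 19 genes for making nucleotide sugars and the sulfate donor, 6 fell and 0 rose in DM and 2 fell in Bmp15-/-, with medians of -0.35 and -0.08. Of all genes 18.2% fell in DM and 5.78% in Bmp15-/-. Ugdh, which makes the UDP-glucuronic acid of hyaluronan, fell in both (-0.45, adjusted p = 0.036, and -0.62, adjusted p = 0.00323). Gfus, which makes GDP-fucose, fell in both as well (-0.40, adjusted p = 0.0497, and -0.36, adjusted p = 0.0325). Gfpt2, an enzyme of the entry step of hexosamine synthesis, fell in DM (-0.72, adjusted p = 0.00201) and was at -0.08 in Bmp15-/-. Gfpt1, of the same step, was not called in either mutant (0.07 in Bmp15-/- and -0.03 in DM, adjusted p = 0.741 and 0.867). Nans, for sialic acid, and Papss1 and Papss2, for the sulfate donor, fell in DM by 0.49, 0.54 and 0.42 (adjusted p = 0.0392, 0.0115 and 0.0138).

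Among ion carriers, the sodium-proton exchangers moved both ways. Slc9a3, an exchanger of epithelial surfaces, had 7.26, 7.31 and 7.16 in wildtype, against 6.47, 6.68 and 6.30 in Bmp15-/- cells and 6.34, 6.38 and 6.87 in DM. It fell 1.69-fold in Bmp15-/- (-0.76 ± 0.15, adjusted p = 0.0181) and 1.64-fold in DM (-0.71 ± 0.15, adjusted p = 0.0082), with all mutant arrays below wildtype. The Bmp15-/- call was lost without wildtype array 1 or 2 or Bmp15-/- array 3. Slc9a2, a close relative, had 6.89, 6.37 and 5.97 in wildtype, against 6.64, 5.78 and 6.71 in Bmp15-/- cells and 7.38, 7.12 and 7.98 in DM. It rose 2.12-fold in DM (1.08 ± 0.32, adjusted p = 0.0308), and the other genotypes overlapped (-0.03). That call was lost without wildtype array 2 or 3 or DM array 1 or 3.

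Both scaffold genes that share the exchanger's symbol rose in DM. Slc9a3r1 had 9.89, 10.04 and 9.90 in wildtype, against 10.83, 10.66 and 10.89 in Bmp15-/- cells and 10.68, 10.25 and 10.71 in DM. It rose 1.80-fold in Bmp15-/- (0.85 ± 0.13, adjusted p = 0.00628) and 1.52-fold in DM (0.61 ± 0.13, adjusted p = 0.00833), without overlap with wildtype, and a second probe set rose in both (0.81 and 0.59). Slc9a3r2 had 6.98, 7.23 and 7.56 in wildtype, against 7.93, 7.60 and 7.49 in Bmp15-/- cells and 7.61, 8.34 and 9.03 in DM. It rose 2.10-fold in DM (1.07 ± 0.31, adjusted p = 0.0292), where its arrays were widely spread, and the call was lost without wildtype array 1 or 2 or DM array 2 or 3.

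Of the bicarbonate family, Slc4a11, a membrane protein known for proton and ammonia transport in the corneal endothelium, was above the filter in wildtype alone. It had 5.08, 5.58 and 5.62 in wildtype, against 4.21, 4.18 and 4.08 in Bmp15-/- cells and 4.12, 4.04 and 4.12 in DM. All 6 mutant arrays were under the 40th percentile of their array, and the gene passed the filter through the 3 wildtype arrays, so it had to be higher there. No fold is given against such dim values. With values floored at the 40th percentile the changes were -0.39 in Bmp15-/-, no longer called, and -0.41 in DM. They are no test of a fall, since the filter fixed their direction. The gene is among those counted as lower in both mutants. At the edge of the filter Slc4a11 had a mean of 4.56 with 3 arrays above it, and Slc25a31 and Slc4a9, with means of 4.34 and 4.94, had 2 and were not tested. Slc4a8, a sodium-driven bicarbonate exchanger, fell in DM by 0.59 ± 0.19 (adjusted p = 0.0397), a call lost without any 1 of the wildtype arrays, Bmp15-/- array 2 or 3, or DM array 1 or 3. Slc4a2, the chloride-bicarbonate exchanger of many cells, had 9.74, 9.79 and 9.76 in wildtype, against 9.73, 9.66 and 9.73 in Bmp15-/- cells and values from 9.48 to 10.09 in DM, and was not called in either mutant (-0.06 and 0.09).

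Of 9 carbonic anhydrases and other pH genes tested, 2 fell in Bmp15-/- and 3 in DM, and none rose in either. Of all genes 5.78% fell in Bmp15-/- and 18.2% in DM. Car12, a carbonic anhydrase of the outer cell surface, fell in both (-1.62 ± 0.16 in Bmp15-/-, adjusted p = 0.00078, and -1.40 ± 0.16 in DM, adjusted p = 0.000391). Chp2, a cofactor of sodium-proton exchangers, fell in both as well (-0.69, adjusted p = 0.0133, and -0.54, adjusted p = 0.0124). Hvcn1, the voltage-gated proton channel, fell in DM by 0.55 (adjusted p = 0.0151).

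Organic ion carriers were mostly dim, with 10 of 21 tested. Slc22a5, the carnitine carrier, had 7.75, 7.58 and 7.85 in wildtype, against 7.36, 7.00 and 7.40 in Bmp15-/- cells and 7.22, 7.25 and 6.96 in DM. Both mutants lay below wildtype on every array, and the fall of 1.50-fold in DM passed (-0.59 ± 0.13, adjusted p = 0.0107), while the change of -0.48 in Bmp15-/- did not (adjusted p = 0.056). Slc22a21, a second carnitine carrier, fell in DM by 0.50 ± 0.15 (adjusted p = 0.0347), a call lost without wildtype array 1 or 3, Bmp15-/- array 3 or any 1 of the DM arrays. Of 9 other organic ion transporters tested, 3 rose and 1 fell in DM, against 28.1% of all genes called. Abcc3, an exporter of conjugated organic anions, fell in both mutants (-0.70, adjusted p = 0.00456, and -0.98, adjusted p = 0.000223). Abcc5, an exporter of cyclic nucleotides, rose in DM (0.62, adjusted p = 0.0026) and was at -0.11 in Bmp15-/-.

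The fatty acid carriers tested were 4, and they divided. Slc27a1, which takes up and activates long-chain fatty acids, had 10.81, 10.53 and 10.80 in wildtype, against 11.12, 11.00 and 11.00 in Bmp15-/- cells and 11.34, 11.20 and 11.33 in DM. The genotypes did not overlap, and it rose 1.49-fold in DM (0.58 ± 0.10, adjusted p = 0.00281), with 0.33 in Bmp15-/- (adjusted p = 0.0707). Its dimmer probe set was not called (0.10 in DM). Slc27a3, an acyl-CoA synthetase of the family, had 7.04, 6.88 and 7.14 in wildtype, against 6.65, 5.80 and 6.39 in Bmp15-/- cells and 6.17, 6.13 and 6.55 in DM. It fell 1.67-fold in DM (-0.74 ± 0.20, adjusted p = 0.0238), a call lost without wildtype array 1 or 3 or DM array 1 or 2, and the same size of change in Bmp15-/- did not pass (-0.74, adjusted p = 0.0513).

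Of 11 other genes of fatty acid uptake and activation, 2 rose in Bmp15-/-, and 4 rose and 2 fell in DM. Calls made up 9.07% of all genes in Bmp15-/- and 28.1% in DM. Acsbg1, an acyl-CoA synthetase, rose by 1.34 ± 0.18 and 1.64 ± 0.18 (adjusted p = 0.00331 and 0.000274), and Fabp3, a fatty acid binding protein, by 0.91 ± 0.20 and 1.24 ± 0.20 (adjusted p = 0.0264 and 0.00235). Cd36, a fatty acid receptor of the cell surface, rose in DM by 0.85 ± 0.22 (adjusted p = 0.0178). Dbi, which binds acyl-CoA, fell in DM by 0.57 ± 0.14 (adjusted p = 0.0135).

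**Figure D3:**
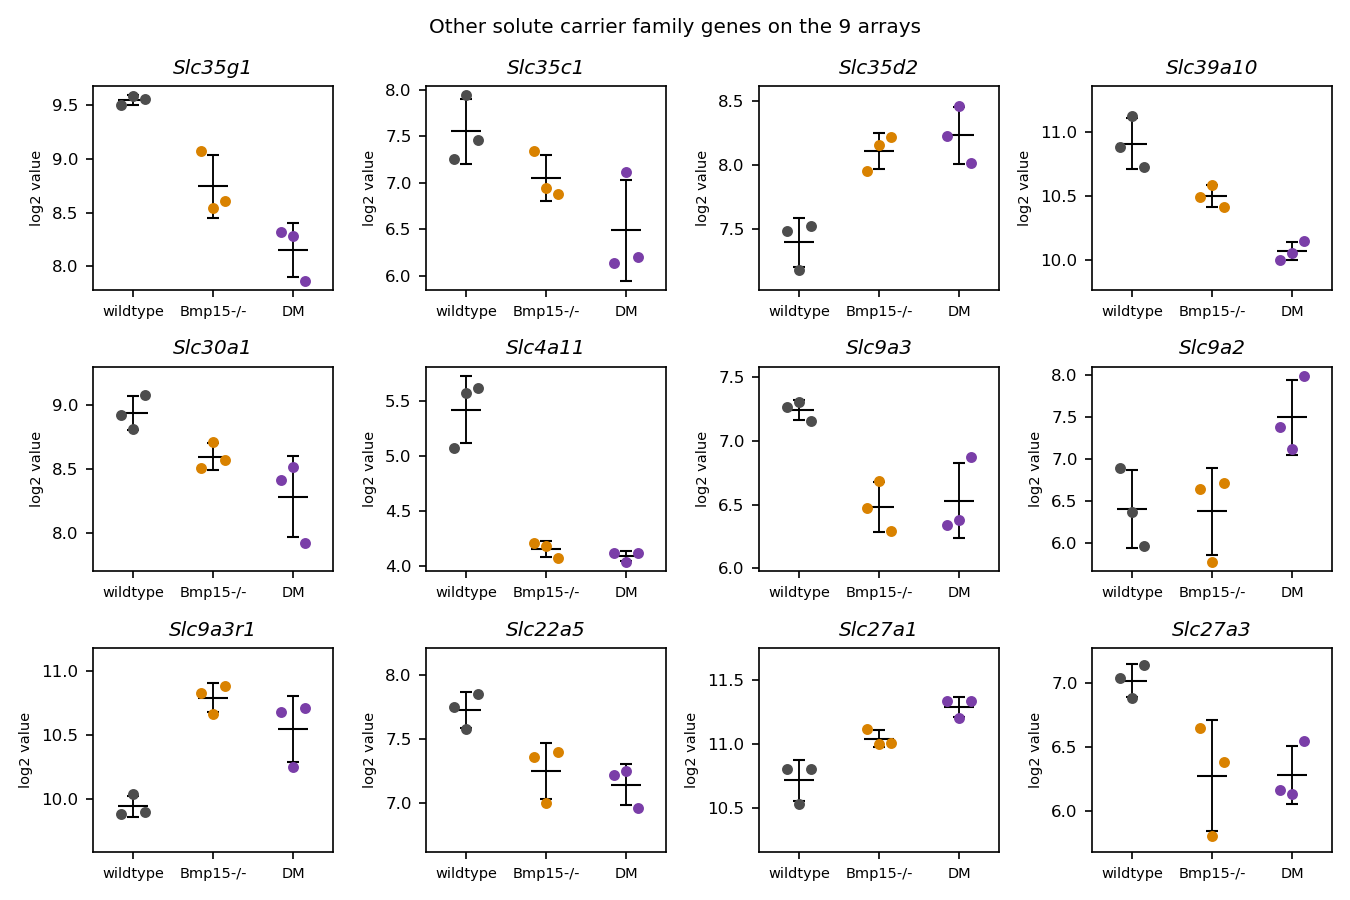
Log2 values (y axis) of 12 genes of the other families on the 3 wildtype, 3 Bmp15-/- and 3 DM arrays (x axis), with the mean and SD of each genotype. Slc35g1 and Slc39a10 step down from wildtype through Bmp15-/- to DM, Slc4a11 is low on all mutant arrays, and Slc9a2 is highest on the DM arrays.

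DM was also compared directly with Bmp15-/-, which asks what the missing Gdf9 copy adds to the loss of BMP15. Of the 110 genes, 2 rose and 2 fell, which is 3.64% called, where 3.25% of all genes were called, so the share was near the background. All DM arrays lay above all Bmp15-/- arrays for 9 genes (8.18%, against 8.95% of all genes) and below them for 17 (15.5%, against 12.5%). Slc25a27 was 3.01-fold higher (1.59 ± 0.33, adjusted p = 0.0355) and Slc25a35 1.94-fold higher (0.95 ± 0.20, adjusted p = 0.0387) in DM. For Slc25a27, Bmp15-/- array 1 lay under the 40th percentile of that array. Slc35f2 was 1.50-fold lower (-0.58, adjusted p = 0.0223). Slc25a25, a further ATP-magnesium carrier, had 9.47, 9.32 and 9.48 in wildtype, against 9.77, 9.64 and 9.85 in Bmp15-/- cells and 9.39, 9.17 and 9.22 in DM. It was 1.41-fold lower in DM than in Bmp15-/- (-0.49 ± 0.10, adjusted p = 0.0303), while neither mutant passed against wildtype (0.33, adjusted p = 0.0657, and -0.16, adjusted p = 0.239). Its dimmer probe set did not differ between the mutants (-0.02, adjusted p = 0.945).

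These 4 calls depended on which arrays were in the fit, as did the calls over all genes. The share of all genes called was 3.25% with all arrays, 0.781% without Bmp15-/- array 2 and 6.86% without DM array 2. Without Bmp15-/- array 2 limma called 0 genes either way (3 higher and 12 lower at an unadjusted p under 0.05), and without DM array 2 it called 2 higher and 6 lower. Without wildtype array 1, 2 or 3, Bmp15-/- array 1 or DM array 1, 0 genes were higher, with 6 to 8 at an unadjusted p under 0.05. Without DM array 3 there was 1 call each way, and without Bmp15-/- array 3 there were 2 higher and 0 lower (11 lower at an unadjusted p under 0.05). Slc39a10, Slc35g1 and Slc9a2 did not pass between the mutants (-0.43, adjusted p = 0.069; -0.59, adjusted p = 0.0801; 1.11, adjusted p = 0.0904). The dimmer Slc39a10 probe set did (-0.59, adjusted p = 0.0259). Outside the families, Gfpt2 was lower in DM than in Bmp15-/- (-0.64, adjusted p = 0.0231), and Cpt1a and Abcc5 were higher (0.55, adjusted p = 0.0245, and 0.73, adjusted p = 0.00912).

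**Figure D4:**
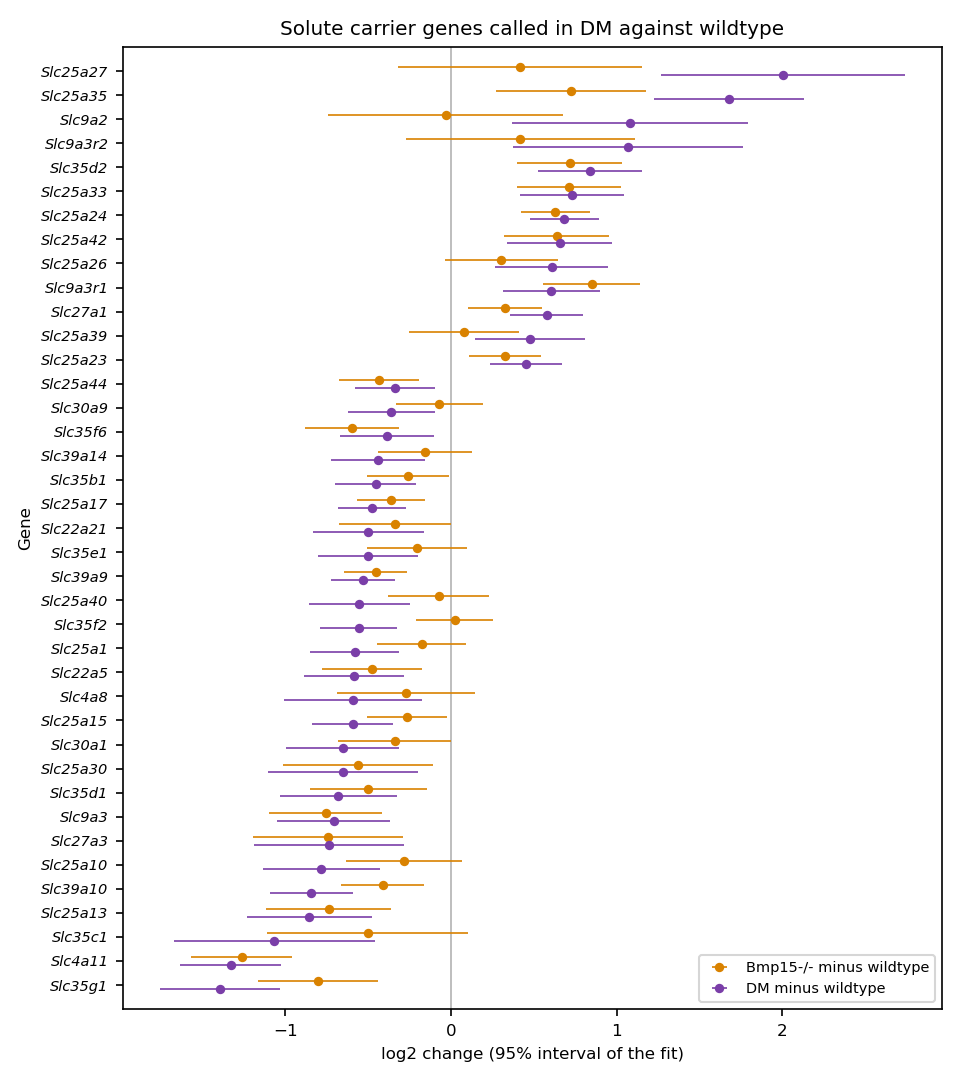
Log2 change with its 95% interval (x axis) for each of the 39 genes called in DM against wildtype (y axis), in DM (purple) and in Bmp15-/- (orange). Both contrasts share the wildtype arrays. The DM changes run from -1.39 for Slc35g1 to 2.00 for Slc25a27.

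Other probe sets gave a check that the choice of the brightest one did not use. Of the 39 genes called in DM, 17 had another tested probe set; in 12 of these every other one had the same sign, in 8 at least 1 was called the same way, and in 0 was any called the opposite way by limma. In Bmp15-/- 7 of the 14 had another, with all signs the same in 6 and at least 1 called the same way in 3. Probe sets of a gene come from the same arrays and are no replicates.

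When all probe sets of a gene were averaged instead, dim ones included, several calls were lost. In DM these were Slc25a24, Slc25a26 (0.29, adjusted p = 0.056), Slc25a42 (0.27, adjusted p = 0.196), Slc25a44 (-0.10, adjusted p = 0.46), Slc35d1 (-0.28, adjusted p = 0.17), Slc35f2 (-0.26, adjusted p = 0.064), Slc35f6 (-0.07, adjusted p = 0.644) and Slc39a14 (-0.20, adjusted p = 0.153). In Bmp15-/- they were Slc25a17, Slc25a24, Slc25a42, Slc25a44, Slc35f6 and Slc9a3, with adjusted p from 0.061 to 0.214. Slc25a15 (-0.29), Slc25a17 (-0.22), Slc25a30 (-0.36), Slc27a1 (0.34), Slc30a1 (-0.39), Slc39a9 (-0.28), Slc9a3 (-0.39) and Slc9a3r2 (0.51) stayed called in DM with smaller changes.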

How the data were processed

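Cumulus cells of 3 genotypes were measured on 9 arrays. The authors deposited log2 expression values per probe set. Per the submitters' processing notes RMA and affy were used, settings and versions not given in the sources used here. The RMA method normalizes between arrays and compresses changes of dim transcripts. Per the labels' protocols 10 ng of RNA was amplified in 2 rounds, which favours 3' ends. The number of arrays limits the precision.

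Gene names came from the platform annotation and were brought up to date with RefSeq of GRCm38.p6. Of 45101 probe sets, 34958 had 1 gene, 932 several and 9211 none. Those with several genes were not used, and 3 of them name a carrier. All 9 arrays entered 1 limma 3.58.1 fit in R 4.3.3 (lmFit and eBayes, genotype as the only term, 6 residual degrees of freedom). Errors in the text are standard errors of that fit. The script was tested on simulated data.

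The members and lists were chosen with earlier results of these data known. Any member could be named. Values on all arrays are given for members called with a log2 change of at least 1, for the called member of each family with the greatest rise and fall in DM, and for the member of each family with the highest wildtype mean. Called partner genes could be named. All-array values of other members were added after they were seen. Promoters are RefSeq windows on GRCm38.p6, of which 90 of the 110 genes had one. Figures were drawn with matplotlib 3.10.9. Alternatives covered the filter, the choice of probe set, normalization, a floor, the replicate block, variance settings and left-out arrays.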

Additional observations from a re-analysis of the deposited data

How the results depend on the processing

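No named call of a family member reversed its direction under any alternative run, and the calls of partner genes and of dimmer probe sets were not rerun. Of the calls against wildtype, 1 of 14 in Bmp15-/- (Slc9a3r1) and 19 of 39 in DM passed under every alternative that tested them (Slc4a11 was not tested with the filter at the 60th percentile or the mean of probe sets), and 0 of 4 between the mutants. Slc4a11 is among the 19, although the filter fixed its direction. After quantile normalization 5 genes were lower in Bmp15-/- instead of 9, while 8.23% of all genes were called there instead of 9.07%. Leaving out wildtype array 2 and Bmp15-/- array 2 together, the arrays with the highest oocyte levels, gave 1 higher and 2 lower in Bmp15-/-. Between the mutants limma then called 0 either way (3 higher and 11 lower at an unadjusted p under 0.05). Over all genes 1.23% were then called in Bmp15-/- and 0.0818% between the mutants. With the mean of all probe sets there was 1 call each way between the mutants. The lower one was a different gene. Of the 4 calls described above 1, a rise, was kept and 3 were lost, both falls among them. With only the 6 arrays compared limma called 0 there (6 higher and 10 lower at an unadjusted p under 0.05). Leaving out single arrays gave 3 to 6 higher and 1 to 11 lower in Bmp15-/-, 10 to 13 higher and 17 to 26 lower in DM, the lowest being without wildtype array 3, and 0 to 2 higher and 0 to 6 lower between the mutants.

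Deviations of arrays with the same replicate number had r of -0.08 to 0.26 over 9 pairs, against -0.2 to 0.17 over 18 pairs of different numbers. The ranges overlap and the pairs share arrays, so they cannot decide whether the numbers pair the samples. With the number as a block there was 1 call higher instead of 2 between the mutants, and 12 higher and 25 lower in DM.

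With 3 arrays per genotype small changes are missed, and genes under the filter, 29 of the 139, were not tested.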

Other observations

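Several Slc35 genes whose brightest probe set was not called in DM had a dimmer one that was lower there. Slc35a1, the CMP-sialic acid carrier, was lower by 0.53 in such a probe set (log2 -0.53, adjusted p = 0.00873 in limma). Slc35a4 was lower in a pair of them (-0.43, adjusted p = 0.0308, and -0.76, adjusted p = 0.0138). Single dimmer probe sets of Slc35a2 (-0.48, adjusted p = 0.0223), Slc35a3, a UDP-N-acetylglucosamine carrier (-0.56, adjusted p = 0.0337), Slc35a5 (-0.55, adjusted p = 0.0419) and Slc35b4 (-0.84, adjusted p = 0.036) were lower as well, while each of these 4 genes had another dimmer probe set that was not called. A dimmer probe set of Slc30a7, a zinc exporter of the secretory pathway, was lower in DM too (-0.53, adjusted p = 0.00736). These were picked after their values were seen.

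The windows of 250 bases before the start were also searched, on both strands, for 6 other motifs. The share of genes with a match in at least 1 window was 1.77% for the CRE (TGACGTCA), 7.82% for AP-1 (TGANTCA), 5.33% for EGR (GCGNGGGCG), 4.69% for the NR5A and NR4A element (NAAGGTCA), 1.22% for the SRE (TCACNCCAC) and 18.5% for the HRE core (ACGTG). Over the 32851 windows the shares were 1.55%, 6.75%, 4.7%, 4.07%, 1.05% and 16.6%. Of the 90 carrier genes in the table, 2, 4, 15, 3, 2 and 24 held them in that order. Of the 22 that fell in DM, 0, 1, 5, 1, 0 and 7 did, and of the 8 that rose 0, 1, 3, 0, 1 and 2.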
